A study of Danio rerio with 6 samples.

Results

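The long arm of zebrafish chromosome 4 was examined in RNAseq counts of sorted *pax8*:DsRed-positive cells. Its genes were taken by position alone, as all genes of the count table on chromosome 4 whose smallest exon start is at 30000000 or above. This gave 2342 of the 32266 listed genes, set against the 805 chromosome 4 genes that start below this boundary and the 28517 genes of the other numbered chromosomes. The samples were 3 *dlx3b/4b* morphant and 3 wild-type samples, described in the methods as biological replicates. All 6 came from embryos heterozygous for the *pax8*:DsRed transgene at 6 to 9 somites, from which live DsRed-positive cells were sorted. According to the paper, this transgene labels the otic-epibranchial progenitor domain and the nephric anlagen. Morphant embryos had received antisense morpholinos against *dlx3b* and *dlx4b* at the one-cell stage, to deplete a pair of homeodomain transcription factors of the ear-forming ectoderm. No control injection is named for the wild-type embryos, so that effects of the injection and of the knockdown cannot be told apart. Coordinates are those of the count table, for which the submitters' processing notes name the GRCz10 build.

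The long arm of zebrafish chromosome 4 is known as an unusual part of the genome. It is largely heterochromatic and replicates late, it is dense in repeats, and it carries large families of zinc finger genes and of NLR-type immune genes together with arrays of small nuclear RNA and 5S ribosomal RNA genes. In wild strains its end holds a region linked to sex. Zinc finger genes encode proteins that bind DNA through repeated finger motifs, and small nuclear RNAs such as U1 and U6 are short components of the splicing machinery that carry no long poly(A) tail.

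Total counts on genes were 23846555 to 26250129 in morphant samples and 27373965 to 28480101 in wild-type samples, so that 3 counts, the upper limit that a count of 0 allows, correspond to 0.105 to 0.126 CPM, counts scaled to a common library size. This limit covers counting error only. *PAX8* was at 265.0 to 415.3 CPM in morphant and 227.4 to 303.7 CPM in wild-type samples, and the 4 of 7 otic-epibranchial markers that could be matched summed to 286.0 to 424.1 CPM in morphant and 236.2 to 348.9 CPM in wild-type samples. Most of this sum was *PAX8* in every sample, so that it says little of the other markers. *foxi1* was at 4.49, 12.4 and 26.3 CPM in morphant and 8.55, 20.0 and 4.98 CPM in wild-type replicates 1, 2 and 3. One of these 4, *atoh1b*, was at 0 in all samples, but the table places it on an unplaced scaffold and the study mapped reads to known chromosomes only, so that this 0 says nothing of its expression. Counts of *dlx4b* were 109, 225 and 567 in morphant and 173, 675 and 112 in wild-type replicates 1, 2 and 3, with the highest values in morphant replicate 3 and wild-type replicate 2. Morpholinos act on the translation or splicing of a transcript, so that these counts do not check the labels. Some marker lists moved with the condition. The 3 of 4 blood and vessel markers that could be matched summed to 795.7 to 841.7 CPM in morphant and 1016 to 1438 CPM in wild-type samples. In every sample this sum lay above those of the otic-epibranchial and nephric lists, though levels of different genes do not measure cell numbers. The 2 of 5 nephric markers that could be matched summed to 352.4 to 421.6 CPM in morphant and 292.5 to 331.2 CPM in wild-type samples, and these ranges did not overlap either. Of these 2, *lhx1a* alone overlapped, at 198.3 to 253.4 CPM in morphant and 211.0 to 219.1 CPM in wild-type samples. The muscle list (4 of 4 matched, 20.0 to 35.6 CPM in morphant and 15.5 to 31.8 CPM in wild-type samples) and the neural list (4 of 5 matched, 12.7 to 47.2 CPM in morphant and 21.9 to 53.3 CPM in wild-type samples) overlapped between the groups.

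A large part of the long arm had no counts. Of its 2342 genes, 1151 (49.1%) had 0 counts in all 6 samples and are called silent here. A further 498 (21.3%) had at least 1 count but too few to pass edgeR's filterByExpr filter, and 693 (29.6%) passed it and are called expressed. Below the boundary, 144 of 805 genes were silent (17.9%) and 481 expressed (59.8%). Of these 144 silent genes, 57 lay just below the boundary, between 25 and 30 Mb. On the other numbered chromosomes 16.8% were silent and 57.3% expressed. A count in each of the 6 samples was found for 811 long-arm genes (34.6%) and for 506 genes below the boundary (62.9%). The other 380 long-arm genes with counts had them in some samples only. The share of long-arm genes at 0 in a single sample was 56.1% ± 0.924 in morphant and 57.1% ± 1.86 in wild-type samples (SD, n = 3 each), a difference smaller than the spread within the wild-type group.

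**Figure D1:**
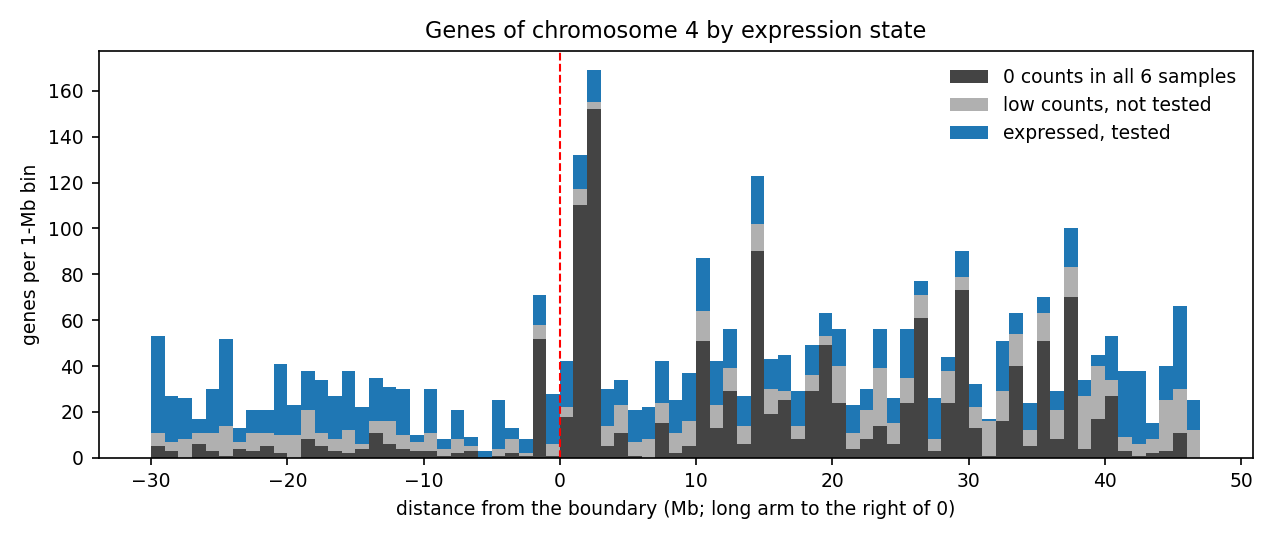
Number of genes (y axis) in each 1-Mb bin of chromosome 4 (x axis, distance in Mb from the boundary at 30 Mb, long arm to the right of the dashed line), stacked by expression state. Silent genes stand in tall, separate blocks on the long arm, the tallest holding 152 silent of 169 genes, whereas expressed genes are spread along the whole arm.

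The silent genes were short. Genes with fewer than 200 bp of merged exon made up 1091 of the long-arm genes (46.6%), and 1042 of these were silent (95.5%). Below the boundary there were 91 such genes, of which 77 were silent (84.6%), and on the other numbered chromosomes 76.7% of 1956 such genes were silent. Among genes of 500 bp or more the silent share was alike on both sides of the boundary, with 85 of 1175 on the long arm (7.23%) and 48 of 666 below it (7.21%). On the other numbered chromosomes it was higher, at 10.6% of 25223 such genes. What differed across the boundary in this length class was the share with few counts, 35.5% on the long arm and 23.0% below the boundary, with 57.3% and 69.8% expressed. The excess of silent genes on the long arm therefore lay in genes under 200 bp, and longer long-arm genes were more often low than silent.

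**Figure D2:**
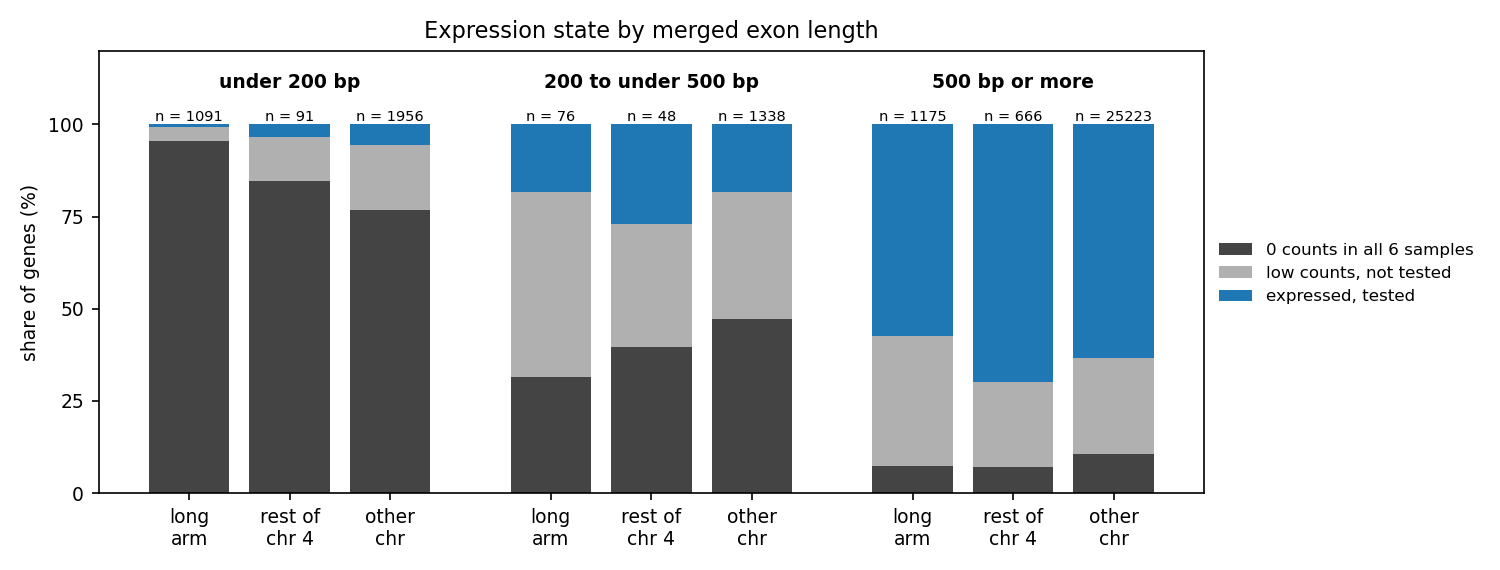
Share of genes (y axis, %) that were silent, low or expressed, in 3 classes of merged exon length, for the long arm, the rest of chromosome 4 and the other numbered chromosomes, with the number of genes above each bar. In the shortest class 95.5% of long-arm genes were silent, whereas in the longest class the silent shares of the long arm and of the rest of chromosome 4 were 7.23% and 7.21%.

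A few exact lengths made up most of the short genes. The long arm held 605 genes of exactly 107 bp, against 33 elsewhere, of which 1 lay below the boundary. Of these 605, all with 1 exon, 596 were silent, and the class summed to 12 counts over 6 samples. The name table gives a symbol to 3 of them, in each case U6. A second class was formed by 246 genes of exactly 164 bp, against 43 elsewhere that were all silent. Here 238 were silent, the class summed to 15 counts, and the 2 genes with a symbol are named U1. Smaller classes were 36 genes of 149 bp with 35 silent (1 named U1), 35 genes of 114 bp that were all silent, and 24 genes of 74 bp with 22 silent. Genes of these lengths may be near-identical copies, the count table holds uniquely aligned reads only according to the methods, and the labels describe poly(A) selection. Their counts are therefore uncertain, and the part of copy number and of the selection in the zeros was not tested.

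The 107-bp genes were arranged in arrays. They formed 46 runs of direct neighbours, the longest of 81 genes, with a median distance of 530 bp from start to start, and 301 lay on the plus and 304 on the minus strand. The 164-bp genes formed 43 runs, the longest of 37 genes, at a median distance of 1305 bp. The 2 classes were nearly always apart, with 1 pair of direct neighbours that joined a 107-bp to a 164-bp gene. Neighbouring genes on the long arm shared a strand in 69.4% of 2341 pairs, against 54.9% of 804 pairs below the boundary.

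Silent genes were accordingly found in long unbroken runs. The longest run held 130 genes in 92.9 kb at chr4:32305627-32398562, of which 125 were 107 bp long and 128 lay on the plus strand. It opened with ENSDARG00000100720 (107 bp, chr4:32305627-32305733) and closed with ENSDARG00000087242 (74 bp, chr4:32398489-32398562), both with 0 counts in all samples. The next runs held 59 genes (chr4:31228365-31261573), 51 genes (chr4:56727635-56758481) and 49 genes (chr4:59517789-59589856), and the last of these was built mainly from 164-bp genes (26 of 49). In all, 28 runs of 10 or more genes held 804 of the 1151 silent genes (69.9%). Below the boundary the longest silent run held 29 genes in 8.57 kb at chr4:28746318-28754891, close to the boundary. With genes under 500 bp set aside, no silent run exceeded 3 genes on either side of the boundary, while the longest expressed run reached 26 genes on the long arm and 20 below it.

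The blocks of silent genes were unevenly placed. Between 30 and 35 Mb, 72.7% of 407 genes were silent, and this segment held 202 of the 107-bp genes. Between 35 and 40 Mb the silent share was 15.6% of 147 genes, and between 40 and 70 Mb it ranged from 29.3 to 63.1% over 5-Mb segments. In the last 2 segments it was 19.6% of 184 genes (70 to 75 Mb) and 12.1% of 91 genes (75 Mb to the end). Among genes of 500 bp or more the silent share stayed between 4.07 and 10.4% in every segment of the long arm, so that the blocks followed the short genes. The segment just below the boundary, from 25 to 30 Mb, was partly like the long arm. There 39.3% of 145 genes were silent, 57 genes were under 200 bp and the median exon number was 3. In the segments before it the silent share ranged from 10.1 to 21.9%. The boundary itself fell among expressed genes. The last 2 genes before it, ENSDARG00000093361 and ENSDARG00000094147, had 25 to 37 and 63 to 133 counts in morphant samples, and 11 to 39 and 98 to 118 counts in wild-type samples. The first 2 genes after it were ENSDARG00000101091 (173, 139 and 143 counts in morphant, 244, 247 and 262 in wild-type samples) and the zinc finger gene *znf1128* (88, 64 and 31 counts in morphant, 78, 62 and 60 in wild-type samples). Neither passed the test described below.

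Long-arm genes had few exons. Exons were counted as merged, non-overlapping intervals per gene. The median was 2 (quartiles 1 and 4, maximum 31) on the long arm, against 6 (quartiles 3 and 13, maximum 101) below the boundary. With 1 exon there were 1122 long-arm genes (47.9%), of which 92.9% were silent and 2.05% expressed. The difference remained within expressed genes, whose median was 3 exons on the long arm and 9 below the boundary.

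Among genes with 2 or more exons, the share expressed fell with exon number on the long arm and rose with it below the boundary. The silent share fell with exon number on both sides. On the long arm 63.7% of genes with 2 or 3 exons were expressed, 58.0% with 4 to 6 exons and 37.0% with 7 or more. Below the boundary these shares were 43.9, 60.9 and 78.2%. Long-arm genes with 7 or more exons were low rather than silent, with 198 of 341 low (58.1%) and 17 silent (4.99%). Their expressed members also had a low level, with a median of 0.394 CPM per kilobase of merged exon, against 5.49 below the boundary. The 5 long-arm genes with the most exons showed the range within this class. *ptprb*, which encodes a receptor phosphatase of blood vessel endothelium, has 31 exons at chr4:72814552-72914132 and had 171, 111 and 88 counts in morphant and 307, 122 and 129 counts in wild-type samples. The clone-named gene *si:ch73-389k6.1* (20 exons) had 259, 285 and 305 counts in morphant and 310, 279 and 364 counts in wild-type samples. The other 3, with 21 to 23 exons, had between 1 and 37 counts in any sample. The groups overlapped for each of these 5 genes.

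The expressed genes of the long arm also had low levels in uniquely aligned reads. Reads that fit more than 1 copy were not counted, so that genes with close copies may be set too low. The part of this in the levels was not tested. Their median level was 1.31 CPM per kilobase (quartiles 0.563 and 2.81), against 4.67 (quartiles 1.10 and 13.8) below the boundary and 4.58 on the other numbered chromosomes. Without the division by length, the median was 2.15 CPM on the long arm and 10.97 CPM below the boundary. At least 100 CPM was reached by 2 long-arm genes and by 40 genes below the boundary. The long arm thus held 7.26% of the listed genes but 0.387% ± 0.00710 of the counts in morphant and 0.358% ± 0.0133 in wild-type samples (SD, n = 3 each).

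The highest levels per length belonged mainly to named genes toward the far end of the arm and to a few short genes. *cct2*, which encodes a subunit of the chaperonin that folds actin and tubulin, is listed with 351 bp in 5 exons at the very end of the chromosome (chr4:76623605-76624990). It had 3419, 3446 and 3566 counts in morphant and 3203, 3229 and 3649 counts in wild-type samples, a mean level of 367.5 CPM per kilobase. *NUP50* (chr4:73490767-73532058), which encodes a nuclear pore protein, was the other gene above 100 CPM, with 6809, 6484 and 6561 counts in morphant and 6530, 5980 and 7056 in wild-type samples. Scaled to library size, both genes were higher in every morphant than in every wild-type sample, but neither was called in the test below (adjusted p = 0.257 and 0.305, edgeR). *terfa* (37.7 CPM per kilobase), which encodes a protein that binds telomere repeats, *RAB21* (24.8), an endosomal GTPase gene, *PACSIN2* (23.95), whose protein bends membranes, and the clone-named *zgc:173716* (32.7) had between 1210 and 2756 counts in every sample. Of these genes *zgc:173716* alone lies near the boundary, at chr4:30408999-30506241. Exons of *NUP50*, *terfa* and *zgc:173716* overlap another listed gene, with genes of both strands considered. Where the strand is the same, reads in the shared part may have been lost to both.

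The remaining genes of highest level were under 200 bp. A gene named *5_8S_rRNA*, for a ribosomal RNA, at chr4:76320727-76320882 (156 bp) had 144, 89 and 195 counts in morphant and 244, 160 and 82 counts in wild-type samples, while the 3 long-arm genes named *5S_rRNA* were silent. The other 3, ENSDARG00000103204, ENSDARG00000099939 and ENSDARG00000098303, lie in 1 cluster of 24 genes with 1 exon each, at chr4:53793841-53897500. In this cluster lengths of 98, 154, 157, 168 and 1875 bp recur, and 5 genes were expressed, 12 low and 7 silent. ENSDARG00000103204 (168 bp, chr4:53831527-53831694) had 441, 437 and 368 counts in morphant and 478, 864 and 329 counts in wild-type samples, whereas the 4 copies of this length differed in total from 12 to 2917 counts. Counts of the whole cluster were 921, 907 and 901 in morphant and 1181, 1944 and 801 in wild-type samples, with the highest value in wild-type replicate 2, so that the groups overlapped. As copies of 1 length may share sequence, the division of reads among them is uncertain.

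This cluster also showed how strand entered the counts. At 7 places a 1-exon gene lies wholly within a 1-exon gene of the opposite strand. At chr4:53797277-53797430 the inner gene ENSDARG00000098303 on the minus strand had 1213 counts in total, and ENSDARG00000099924, which covers it on the plus strand, had 1. For ENSDARG00000099939 and the surrounding *si:dkeyp-3b12.8* the totals were 1881 and 15. In all 7 pairs the inner gene had more counts than the outer one, which counting without regard to strand would not give for a gene wholly inside another.

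Named gene families differed in their states. The name table gives a symbol to 821 long-arm genes (35.1%), against 679 below the boundary (84.3%). Of the 100 genes with a *znf* symbol, zinc finger genes, 85 were expressed, 14 low and 1 silent. On the other numbered chromosomes 159 of 172 *znf* genes were expressed (92.4%) and 0 were silent. The expressed *znf* genes of the long arm had low levels in uniquely aligned reads, with a median of 1.34 CPM per kilobase and a maximum of 8.15 in *znf1040*. The 159 expressed *znf* genes of other numbered chromosomes had a median of 5.06. The limit given above for genes with close copies holds here too. *znf1040* (chr4:38939438-38949041) had 626, 558 and 551 counts in morphant and 596, 582 and 586 counts in wild-type samples. All 13 genes named U6 were silent, and of the 23 genes named U1, 18 were silent and 5 low. The 2 genes with an NLR symbol, *nlrc3l2* and *nlrp12l2*, which belong to a family of intracellular immune receptors, were both low, with 42 and 13 counts in total. Near the end of the arm, the 13 *ms4a17a* genes (chr4:74912105-75208498) comprised 3 expressed, 9 low and 1 silent gene, with 486 counts in total and 164 in the highest gene, and of the 6 *slco1* genes, which encode organic anion transporters, 4 were silent. These 2 families and *znf1040* were picked after their values had been seen.

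The longest unbroken run of expressed genes held 18 genes in 182.3 kb at chr4:75536652-75718925, with 24869 counts in total and 16 of 18 genes on the minus strand. The longest below the boundary held 17. Its first 10 genes were at 0.214 to 5.05 CPM per kilobase and included *PSMB10*, which encodes a subunit of the immunoproteasome, and the zinc finger gene *znf1185*. *PSMB10* had 85, 113 and 107 counts in morphant and 143, 196 and 168 counts in wild-type samples, so that every morphant value was the lower, but the adjusted p was 0.175 (edgeR). *znf1185* had 254, 234 and 144 counts in morphant and 288, 208 and 276 counts in wild-type samples, which overlap. Several neighbours in this run have nearly equal lengths (2600 bp in 2 of them), and their counts are uncertain where reads fit more than 1 copy.

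The effect of the morpholinos was tested for each expressed gene by the quasi-likelihood method of edgeR. The model held the replicate number as a block, and p-values were adjusted by the Benjamini-Hochberg method over all 17526 tested genes. The methods describe a clutch effect, but that the replicate numbers mark clutches is an assumption here. In bulk samples, fewer cells of a type and less RNA per cell cannot be told apart. With an adjusted p below 0.1, 17 of 693 long-arm genes were called (2.45%), against 10.9% of all tested genes and 53 of 481 genes below the boundary (11.02%). Of these, 14 were higher in morphants (2.02%, against 4.85% of all tested genes) and 3 were lower (0.433%, against 6.05%). The adjustment limits the expected share of false calls over all tested genes, not among these 17. As a smaller share was called on the long arm, the share of false calls may be higher there. Long-arm genes had fewer counts than others, with a median mean count of 56.8 against 261.8 over all tested genes, and the difference in share varied with depth. Among genes with a mean count under 50, 0.310% of 323 long-arm genes and 3.43% of 4344 genes were called, from 50 to under 500 it was 3.79% of 343 and 12.5% of 6398, and from 500 it was 11.1% of 27 (3 genes) and 14.2% of 6784, which is near the share of all genes. Without the block, edgeR called 28 long-arm genes, when 13.7% of all tested genes were called. The count of 17 also depended on single replicates, as leaving out replicate number 1, 2 or 3 gave 2, 4 or 47 called long-arm genes, when 1.04, 5.71 and 22.3% of all tested genes were called.

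Of the 14 genes that rose in morphants, 8 have no symbol, 5 carry clone names and 1 is the zinc finger gene *znf1113*. This is near the make-up of the 693 tested long-arm genes, of which 313 have no symbol and 270 carry clone names. Of the 14, 11 have 2 or 3 exons, as do 381 of the 693. ENSDARG00000103086, with 2 exons at chr4:62148965-62150080, had 207, 178 and 89 counts in morphant and 22, 56 and 33 counts in wild-type samples. No morphant value overlapped with a wild-type value, and the gene rose by a log2 fold change of 2.22 ± 0.38 (SE, adjusted p = 0.0153, edgeR). ENSDARG00000105747 (3 exons, chr4:72333488-72342090) was near the detection limit, with 14, 17 and 11 counts in morphant and 0, 2 and 1 counts in wild-type samples. Its depth-scaled ratio of summed counts was 15.4 with a 95% interval of 4.94 to 77.9, which covers counting error only (adjusted p = 0.0473, edgeR).

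The other rises were smaller. ENSDARG00000103008 (5 exons, chr4:34172073-34179372) had 168, 197 and 238 counts in morphant and 85, 126 and 100 counts in wild-type samples, a log2 fold change of 1.10 ± 0.25 (SE, adjusted p = 0.0372, edgeR). *si:dkey-56m15.8* (chr4:45969200-45979927) had 196, 173 and 200 counts in morphant and 102, 98 and 133 in wild-type samples, a log2 fold change of 0.93 ± 0.22 (SE, adjusted p = 0.0425, edgeR). *si:dkey-16p19.5* (chr4:40685264-40695165) had 261, 262 and 310 counts in morphant and 179, 152 and 193 in wild-type samples, a log2 fold change of 0.82 ± 0.19 (SE, adjusted p = 0.0405, edgeR). For each of these 3 genes the lowest morphant count lay above the highest wild-type count. *znf1113* (2 exons, chr4:46987302-47011043) averaged 14.9 ± 1.04 CPM in morphant and 9.95 ± 2.07 CPM in wild-type samples (SD, n = 3 each), a log2 fold change of 0.60 ± 0.17 (SE, adjusted p = 0.0782, edgeR). The risen gene with the greatest merged exon length, ENSDARG00000087887 (9737 bp in 13 exons over chr4:73244029-73485212), ends just before *NUP50*. It averaged 54.9 ± 11.5 CPM in morphant and 37.6 ± 2.53 CPM in wild-type samples (SD, n = 3 each), a log2 fold change of 0.52 ± 0.13 (SE, adjusted p = 0.0567, edgeR).

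The remaining 7 risen genes lay between these in size, with log2 fold changes from 0.67 in *si:dkey-57k17.1* to 0.86 in ENSDARG00000103708. They were ENSDARG00000103708, ENSDARG00000090532, *si:dkey-172k15.17*, *si:dkey-43f9.4*, ENSDARG00000100838, ENSDARG00000099795 and *si:dkey-57k17.1*. Their adjusted p-values ran from 0.052 in ENSDARG00000099795 to 0.0950 in *si:dkey-172k15.17* (edgeR). *si:dkey-172k15.17* stands within the longest expressed run, where none of the other 17 genes was called. No 2 called long-arm genes were direct neighbours.

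The 3 genes that fell in morphants were ENSDARG00000099355, *si:dkeyp-33c10.5* and *ikbip*. ENSDARG00000099355 (a gene with a clone name, 7 exons, chr4:55174332-55179776) had 562, 576 and 465 counts in morphant and 1044, 1359 and 997 counts in wild-type samples, a log2 fold change of -0.93 ± 0.14 (SE, adjusted p = 0.00963, edgeR). It had the lowest adjusted p and the highest level of the 17 called genes, at 19.0 CPM per kilobase. *si:dkeyp-33c10.5* (3 exons, chr4:54841349-54842432) had 51, 32 and 21 counts in morphant and 75, 128 and 82 counts in wild-type samples, a log2 fold change of -1.34 ± 0.39 (SE, adjusted p = 0.0803, edgeR). *ikbip*, which encodes a protein that interacts with an IκB kinase, averaged 55.7 ± 1.83 CPM in morphant and 71.2 ± 0.673 CPM in wild-type samples (SD, n = 3 each, log2 fold change -0.35 ± 0.10 SE, adjusted p = 0.0826, edgeR). Its exons at chr4:76581353-76590118 overlap those of *terfa* on the same strand. For these 3 genes too, the groups did not overlap, which adds no support, as the genes were called with these same values.

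**Figure D3:**
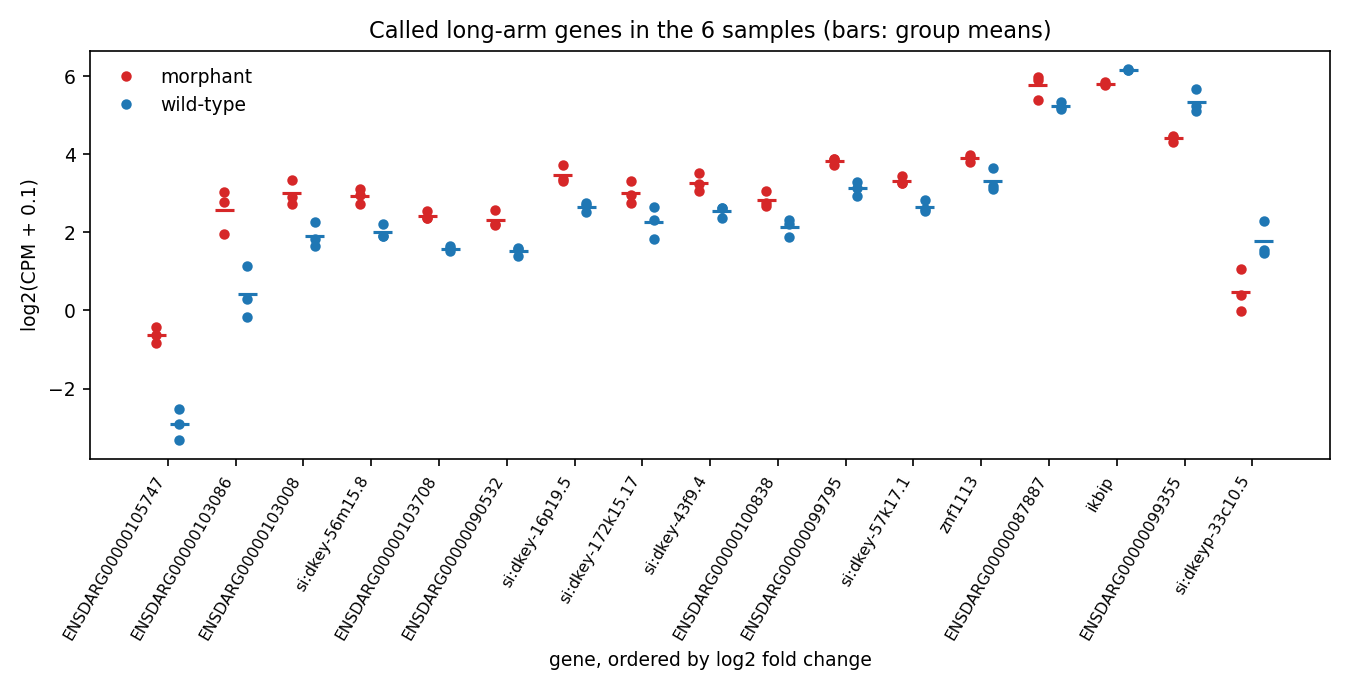
Normalised level, as log2(CPM + 0.1) on the y axis, of the 17 called long-arm genes in each of the 6 samples, ordered by log2 fold change on the x axis. Points are samples and bars are group means, and for all 17 genes the 3 morphant points lie wholly above or wholly below the 3 wild-type points. The genes were called with these same values, so that the separation adds no support. Over all tested genes, every morphant value was higher in 15.1% and lower in 16.4%.

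Beside these single genes, fold changes on most of the long arm lay slightly above 0, but not at its far end. The median log2 fold change of its 693 tested genes was 0.17 (quartiles -0.08 and 0.45), and 68.4% of them were above 0. Over all tested genes the median was -0.01 with 48.5% above 0, and below the boundary it was -0.02 with 47.4% above 0. Every morphant value exceeded every wild-type value, in CPM, for 118 long-arm genes (17.03%, against 15.1% of all tested genes), and lay below it for 30 (4.33%, against 16.4%). The genes with all morphant values lower were thus fewer on the long arm, while those with all morphant values higher were near the share of all genes. The distance to all tested genes was smallest at the highest depth. For mean counts under 50, from 50 to under 500 and of 500 or more, the long-arm medians were 0.19, 0.16 and 0.10 (323, 343 and 27 genes), where all tested genes had medians of -0.10, -0.06 and 0.03. When any 1 replicate number was left out, the median over the long-arm genes tested in that fit lay between 0.13 and 0.22.

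These values differed by gene class and position. Genes with 2 or 3 exons had a median of 0.24 (75.6% of 381 above 0), whereas genes with 2 or 3 exons below the boundary were at 0.00 and those of the other numbered chromosomes at -0.03. Long-arm genes with 4 or more exons had a median of 0.09 and the 23 expressed genes with 1 exon one of -0.00. Expressed genes without a symbol had medians of 0.22 on the long arm (313 genes), 0.29 below the boundary (34 genes) and -0.05 on the other numbered chromosomes. For clone-named genes these medians were 0.10, 0.00 and -0.01. The 85 expressed *znf* genes had a median of 0.29 with 65 above 0, against 0.05 for *znf* genes of other numbered chromosomes. Of the 85, 1 was called (1.18%), against 17 of 159 *znf* genes of other numbered chromosomes (10.7%) and 10.9% of all tested genes. These *znf* sets differed in depth, with a median mean count of 61.7 on the long arm and 353.8 on the other numbered chromosomes. The part of depth in this difference was not tested. Along the arm, the medians of 5-Mb segments lay between 0.19 and 0.29 from 30 to 70 Mb, then at 0.05 from 70 to 75 Mb and at -0.08 beyond. The segment just below the boundary, from 25 to 30 Mb, had a median of 0.13, and the 5 segments before it lay between -0.11 and 0.00. With the arm divided at 70 Mb, a place chosen after the values had been seen, the medians were 0.23 for the 542 genes before it and -0.00 for the 151 genes after it. The 2 parts also differed in depth, with a median mean count of 48.1 before 70 Mb and 151 after it. Of the *znf* genes, the last 2 segments held 2 and 3. The part of depth and gene class in the difference was not tested. All these medians and shares are descriptions of groups of genes, which are not independent replicates, and no test was made of them.

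**Figure D4:**
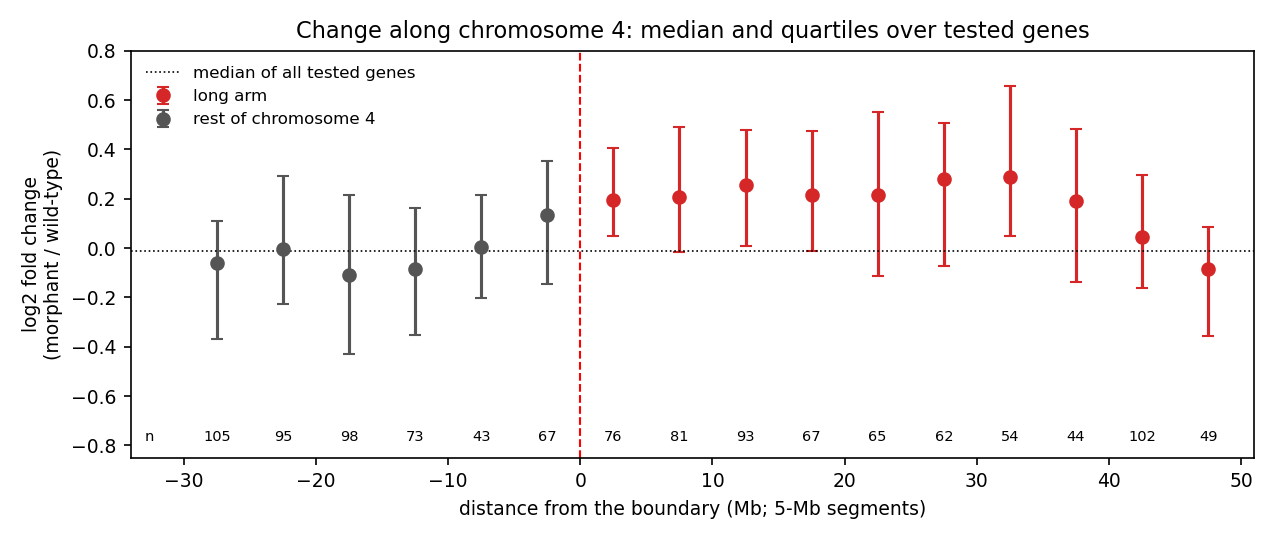
Log2 fold change of morphant over wild-type samples (y axis) along chromosome 4, in 5-Mb segments by distance from the boundary (x axis, Mb). Points are medians over tested genes, bars reach the quartiles, and the number of genes stands below each point. The 8 segments from the boundary to 40 Mb beyond it have medians of 0.19 to 0.29, and the last 2 have 0.05 and -0.08.

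Sample by sample, the groups came close to each other. The long arm took 0.390, 0.391 and 0.379% of all counts in morphant replicates 1, 2 and 3 and 0.369, 0.343 and 0.361% in wild-type replicates 1, 2 and 3. The lowest morphant share lay above the highest wild-type share, by less than the range within the wild-type group. The median deviation of tested long-arm genes from their mean over the 6 samples was 0.11, 0.07 and 0.03 on the log2 scale in morphant and 0.02, -0.12 and -0.06 in wild-type samples. On this scale morphant replicate 3 and wild-type replicate 1 were nearly level, and wild-type replicate 2 was the lowest. Between same-numbered samples, the median difference was 0.09, 0.18 and 0.08. For these deviations and differences a constant was added to each CPM value before the log2 was taken. The constant shrinks them for genes of low CPM, so that they are not on the scale of the edgeR fold changes. In these samples *gata1a*, which marks blood precursors, fell (log2 fold change -1.09, adjusted p = 0.00542, edgeR). The other blood and vessel markers matched, *kdrl* and *TAL1*, were lower but not called (-0.47 and -0.38, adjusted p = 0.190 and 0.123, edgeR). *OSR1*, a gene of the nephric anlagen, rose (0.76, adjusted p = 0.00839, edgeR). The other nephric marker matched, *lhx1a*, was level (0.04, adjusted p = 0.874, edgeR), so that the nephric sum given above differed through *OSR1*. The part of cell composition in the long-arm values was not tested.

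**Figure D5:**
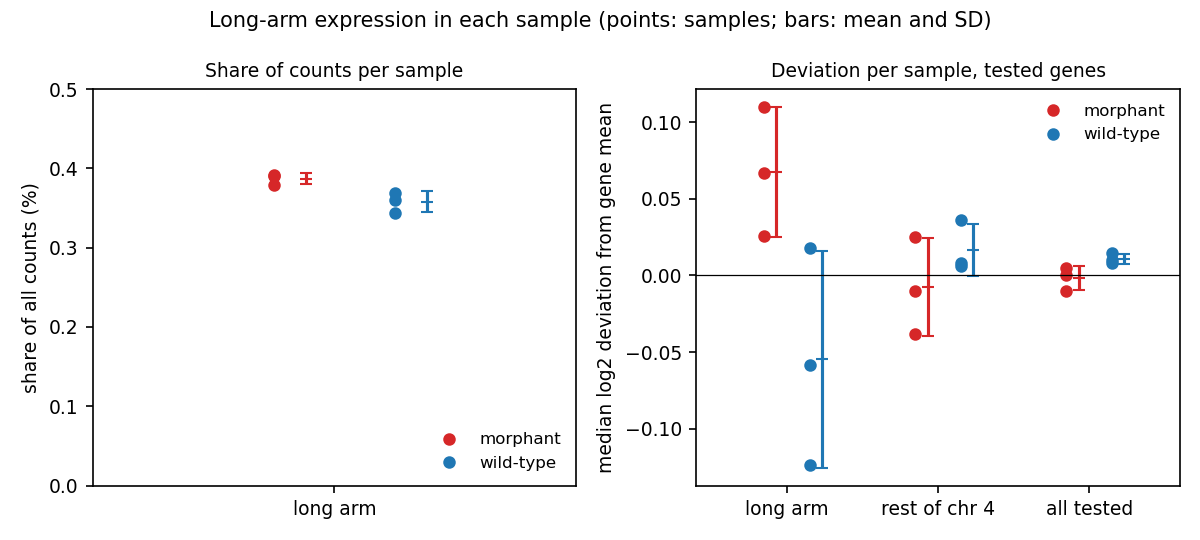
Left, share of all counts on long-arm genes (y axis, %) in each sample. Right, median log2 deviation of tested genes from their mean over the 6 samples (y axis) for the long arm, the rest of chromosome 4 and all tested genes. A constant was added to CPM before the log2, which shrinks deviations of genes of low CPM. Points are samples, and bars give mean and SD (n = 3 each). Morphant samples lie above wild-type samples for the long arm, from 0.379% upward against at most 0.369% of counts, while all tested genes stay near 0.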

How the data were processed

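The deposited file holds raw counts per gene for 6 samples, which the authors made from uniquely aligned reads without normalization. The methods name GSNAP and featureCounts, and the submitters' processing notes name featureCounts 1.5.2, bcl2fastq 2.17.1.14 and GRCz10, whereas the methods name a later build. Coordinates, which end at 76624990 on chromosome 4, were used as deposited. The labels describe poly(A) selection and a directional kit, and the methods describe Smart-seq2 libraries. The strand setting of the counting is not given in the sources used here. No sample column was left out, and 92 spike-in rows, all at 0, were not used.

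Symbols came from a table of Ensembl identifiers (26433 of 32266 matched). Exons were merged per gene, and genes were ordered by start. Counts were filtered with filterByExpr, normalised by TMM and analysed with the quasi-likelihood method of edgeR 4.0.16 (R 4.3.3). The model had replicate number and condition as terms, and the threshold for a call was an adjusted p of 0.1, since the methods describe a multi-factor design and this threshold. The standard error was the size of the log2 fold change divided by the square root of F. The code was tested on simulated data. Figures were drawn with matplotlib 3.10.9. The 6 libraries gave 23846555 to 28480101 counts.

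Genes were named by a rule: the 10 of highest level per kilobase, all called genes, the ends of the longest silent run, the first 10 genes of the longest expressed run, the 5 with most exons, and 2 genes on each side of the boundary. The genes, lists and rules were chosen with earlier results of these data known. The alternatives were DESeq2 1.42.0, fits without the block, RLE normalization, other filters, an adjusted p below 0.05, other boundaries, no overlapping genes, and leaving out replicates.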

Additional observations from a re-analysis of the deposited data

How the results depend on the processing

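The deviations of same-numbered samples from their group means correlated at r = 0.16, 0.05 and -0.14 over 17526 genes. For samples of different number r ran from -0.24 to 0.22. The numbers thus gave no sign of pairing, which 3 samples per group cannot exclude. Without the replicate block, edgeR called 28 long-arm genes in place of 17 (21 higher and 7 lower in morphants, 16 of the 17 among them), when 13.7% of all tested genes were called. DESeq2 called 15 with the block and 45 without it (37 higher and 8 lower), when 7.75 and 11.5% of all genes in these fits were called. Without a filter on low counts 33 were called (27 higher and 6 lower), when 11.1% of all genes were called. With at least 10 counts in every sample it was 19 (5 lower), when 12.3% were called. At an adjusted p below 0.05 only 6 were called (5 higher and 1 lower), for which no share of all genes was taken. From 25000000 onward it was 22 (6 lower), in the main fit with 10.9% of all tested genes called. Leaving out a replicate number gave 2 to 47 called genes, 1 to 37 higher and 1 to 10 lower, when 1.04 to 22.3% of all tested genes were called. Without the block, leaving out morphant replicate 1, 2 or 3 gave 9, 5 and 12 (7, 4 and 10 higher). Of all tested genes 5.42, 5.15 and 7.74% were then called. Leaving out wild-type replicate 1, 2 or 3 gave 11, 19 and 23 (9, 16 and 17 higher), when 7.05, 10.8 and 13.4% of all tested genes were called. In each of the 15 fits the share called was lower among long-arm genes than among all tested genes, and the median log2 fold change stayed between 0.13 and 0.22. The 17 called genes kept their direction in all fits that tested them, and ENSDARG00000099355 and ENSDARG00000103086 were called in all 15. The fits share samples and the genes were picked in the main fit, so that a kept direction adds little. Of the 17, 2 were still called without replicate number 1, 4 without number 2 and 16 without number 3. *si:dkey-172k15.17* was called in the fewest fits, 6 of 15. DESeq2 gave ENSDARG00000105747 no adjusted p. For named genes that were not called, 46 refits changed the sign of a fold change and 5 passed the threshold.

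The share of silent genes was 52.3% with fewer than 3 counts in place of 0, 70.4% for genes failing filterByExpr, 7.23% among genes of at least 500 bp, 44.2% from 35000000 onward and 54.7% without genes that overlap another. The longest silent run was 3 genes among genes of at least 500 bp and 51 from 35000000 onward. The median exon number was 4 among genes of 2 or more exons and 1 without overlapping genes. The median level was 2.15 as CPM and 0.394 over all genes with at least 1 count. The mean share of counts was 0.324% in morphant and 0.300% in wild-type samples without the 5 highest genes, 0.553 and 0.515% from 25000000 onward, 0.333 and 0.310% from 35000000 onward, and 0.275 and 0.251% without overlapping genes.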
